A study of Homo sapiens with 18 samples.

Results

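The interferon-induced transmembrane genes IFITM1, IFITM2 and IFITM3 were examined in PANC-1 cells, a line from a human pancreatic ductal carcinoma, with and without a stable knockdown of NAT10. They are 3 of the 58302 genes in the expression table. They were chosen by name, with the expression values and peak lists of these same libraries already known, so their own values are given as a description and without a test. The control cells (shCtrl) had received a lentiviral shRNA vector that the labels call empty, and the NAT10-KD cells (shNAT10) a lentiviral shRNA vector against NAT10. The paper's supplement lists a non-targeting shRNA, so whether the control vector carried a hairpin cannot be told. NAT10 is the acetyltransferase that writes N4-acetylcytidine (ac4C) on RNA. RNA-seq gave 3 libraries per group, and acRIP-seq, an immunoprecipitation of RNA fragments with an antibody against ac4C, gave 1 deposited peak list per group from 3 IP and 3 input libraries. The labels do not say which hairpin was used or whether the 3 libraries came from separate cultures, so every p-value measures only the spread between these libraries.

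The IFITM proteins are small membrane proteins made by most cells at a basal level and in larger amounts after interferon. They sit in the membranes through which enveloped viruses enter and keep the viral and cellular membranes from fusing fully. IFITM1 is found mainly at the cell surface, whereas IFITM2 and IFITM3 carry a longer N terminus with a sorting signal and reside mainly in endosomes and lysosomes. Interferons bind their receptors, the kinases JAK1 and TYK2 phosphorylate STAT proteins, and these enter the nucleus with IRF9 to bind the interferon-stimulated response element (ISRE) in front of IFITM and many other genes.

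IFITM2 (ENSG00000185201, chromosome 11, 307631 to 315272, forward strand), IFITM1 (ENSG00000185885, 313506 to 315272, forward strand) and IFITM3 (ENSG00000142089, 319669 to 327537, reverse strand) lie side by side on GRCh38 in GENCODE v29. The exons of IFITM2 and IFITM1 overlap on the same strand. A long IFITM2 transcript ends in the last exon of IFITM1, and the 351 shared bases make up 32.5% of the exon bases of IFITM1 and 22.7% of those of IFITM2. How the authors' counting treated reads in these bases is not given in the sources used here, so the level of IFITM1 in particular is uncertain. IFITM3 shared no exon base with a gene on its own strand, and 21.3% of its exon bases lay opposite exons of the antisense AC136475.5. The kit kept the strand of the RNA, but the sources do not say whether the counting used it, and AC136475.5 had at most 0.478 FPKM in any library.

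**Figure D1:**
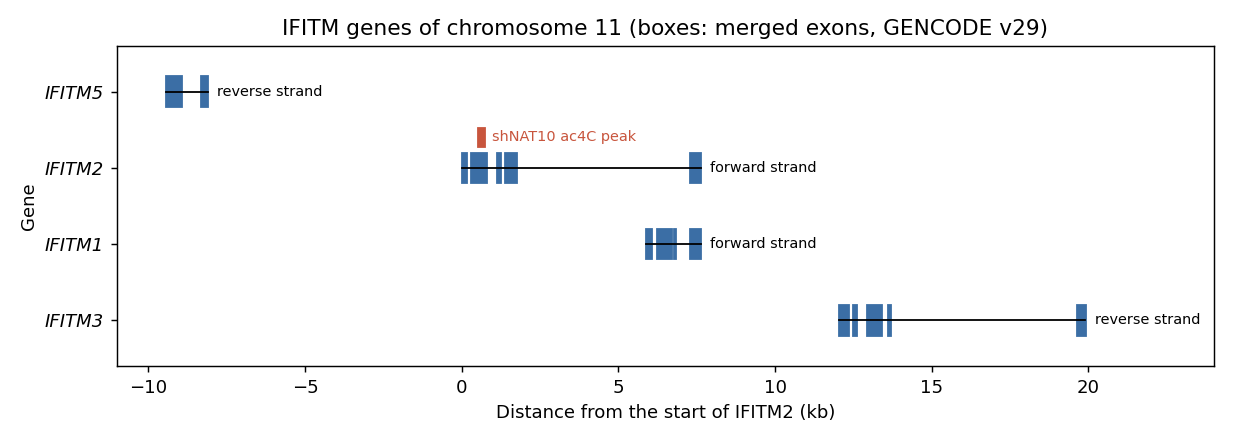
Map of the IFITM genes of chromosome 11, with merged exons as boxes and the distance from the start of IFITM2 in kb on the horizontal axis. The last exon box of IFITM2 coincides with the last box of IFITM1. The single acRIP-seq peak on the 3 genes, labelled as an ac4C peak, lies near the start of IFITM2, in the shNAT10 list.

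The 2 members found in the RefSeq promoter table (GRCh38.p14, 250 bases before and 50 after each gene start) were searched on both strands for the core of the ISRE, written as GAAA, 2 bases of any kind and GAAA. IFITM1 and IFITM3 each held 2 matches on the strand of the gene. The stretches below are shown because they are the letters through which the family answers interferon in textbooks, with the match in capitals. They lie at chr11:313990-314019 and chr11:314024-314053 on the forward strand for IFITM1, and at chr11:320893-320922 and chr11:320876-320905 on the reverse strand for IFITM3. The gene starts meant here are those of the promoter table. They lie inside the wider GENCODE intervals given above, and so do the matches.
IFITM1, match starting 40 bases before the gene start: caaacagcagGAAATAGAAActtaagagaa
IFITM1, match starting 6 bases before the gene start: acacttctgaGAAACTGAAAcgacagggga
IFITM3, match starting 52 bases before the gene start: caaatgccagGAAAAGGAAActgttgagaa
IFITM3, match starting 35 bases before the gene start: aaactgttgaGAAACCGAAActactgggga
The motif was present in 3.65% of the 27305 promoters in the table, and in 32 of the 56 (57.1%) of listed interferon effector genes found there. IFITM1 also held 1 match to TTC, 3 bases of any kind and GAA, the core of the gamma-activated site, which overlaps its second ISRE match and was present in 7.88% of all promoters and 23.2% of those of the effectors. IFITM3 held none in this window, and IFITM5, a bone-specific relative in the same cluster, held a match to neither pattern.

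The coding sequences of the members are close copies of each other. The coding sequence of IFITM2 (396 bases) and that of IFITM3 (399 bases) were identical at 93.9% of the aligned bases, and that of IFITM1 (375 bases) was identical to IFITM3 at 87.5% and to IFITM2 at 85.4%. Over windows of 150 bases, the read length of the RNA-seq, none of the 659 windows of the IFITM3 transcript and none of the 510 windows of the IFITM2 transcript also occurred in a transcript of another gene. For IFITM1, 30.3% of the 706 windows occurred in IFITM2 as well, through the shared last exon. A full-length read on IFITM2 or IFITM3 therefore had letters that tell the transcripts used here apart, while shorter stretches of 50 bases were shared for 20.3% of IFITM3 and 15.7% of IFITM2. The IFITM2 transcript used here lacks the exon shared with IFITM1, so reads of the long IFITM2 transcript in that exon are not covered.

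IFITM3 was the most abundant member. Its FPKM, the deposited count of fragments scaled to the length of the gene and to the depth of the library, was 342, 510 and 393 in shCtrl and 81.2, 82.7 and 76.3 in shNAT10 libraries. All shNAT10 libraries lay below all shCtrl libraries, and the shNAT10 libraries were closer to each other, with a coefficient of variation of 4.19% against 20.8%. The mean fell from 415 ± 86.3 to 80.1 ± 3.36 FPKM (SD, n = 3), which is 5.18 times lower, and the difference was -2.35 on the log2(FPKM + 0.1) scale. By mean FPKM it ranked 84 of the 12982 genes tested in shCtrl cells and 615 in shNAT10 cells. The reads recovered behind these values numbered 4795 to 8347 per shCtrl library and 1039 to 1299 per shNAT10 library.

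IFITM2 was present at a level more than an order of magnitude below IFITM3 in shCtrl cells. Its FPKM was 24.4, 34.4 and 25.6 in shCtrl and 11.4, 9.17 and 9.32 in shNAT10 libraries, again without overlap of the groups. The mean fell from 28.1 ± 5.46 to 9.96 ± 1.25 FPKM, 2.82 times lower, with a log2 difference of -1.48. The values rest on 377 to 621 reads per shCtrl library and 147 to 161 per shNAT10 library.

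IFITM1, the cell-surface member, was near the lower limit of what was tested. Its FPKM was 2.83, 2.95 and 1.39 in shCtrl and 0.369, 1.08 and 0.662 in shNAT10 libraries. The groups did not overlap, but the lowest shCtrl library and the highest shNAT10 library lay close together. The mean was 2.39 ± 0.866 in shCtrl and 0.705 ± 0.359 FPKM in shNAT10, with a log2 difference of -1.66 and a pooled SD of 0.62 on that scale, against 0.23 for IFITM2 and 0.21 for IFITM3. Only 28 to 51 reads per shCtrl library and 5 to 18 per shNAT10 library lie behind it. It met the expression filter (3 or more libraries reaching 1 FPKM) through its shCtrl libraries and 1 shNAT10 library.

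The order of levels per length, IFITM3 above IFITM2 above IFITM1, was the same in all 6 libraries, with no overlap between neighbours in that order. IFITM3 supplied 92.6% to 93.6% of the summed FPKM of the members in shCtrl and 87.3% to 89.0% in shNAT10 libraries. The sum itself lay between 369.3 and 547.8 FPKM in shCtrl and between 86.3 and 93.0 in shNAT10 libraries. The ratio of IFITM3 to IFITM2 was 14.0 to 15.3 in shCtrl and 7.12 to 9.02 in shNAT10 libraries, so that the fall of IFITM3 was the deeper of the pair on this linear scale. The ratio of IFITM2 to IFITM1 overlapped between the groups, at 8.60 to 18.4 and 8.47 to 30.9. In bulk RNA, fewer cells that make an mRNA and less of the mRNA per cell cannot be told apart.

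The second shCtrl library stood apart with the highest IFITM2 and IFITM3 values and the highest sum of FPKM over all genes, 390637 against 337294 to 361053 in the other libraries. Without it the log2 difference was -2.19 for IFITM3, -1.33 for IFITM2 and -1.48 for IFITM1. The depth recovered from the FPKM values was 15831720 to 23521762 reads per library. NAT10 was 31.6, 27.7 and 28.6 FPKM in shCtrl and 7.92, 8.43 and 7.90 in shNAT10 libraries, with a log2 fold change of -1.84 ± 0.08 (SE, limma adjusted p = 3.85e-05). All 5 epithelial markers were detected. KRT8, KRT18, KRT19 and KRT7, keratins of simple and ductal epithelium, fell by 0.83 to 1.18 on the log2 scale, and EPCAM, an epithelial adhesion molecule, rose by 2.20. Of the markers of other cell types, 6 leukocyte genes had summed FPKM of 2.15 to 2.93 in shCtrl and 1.38 to 1.59 in shNAT10, almost all of it CD14, which fell by 0.75, and 4 endothelial genes at most 0.651. The T and B cell markers CD3E and MS4A1 had no read in any library. The 6 fibroblast markers summed to 29.6 to 34.6 FPKM in shCtrl and 19.3 to 22.8 in shNAT10, a level like that of IFITM2, nearly all of it from the collagen gene COL1A1, which fell by 0.69. COL3A1, another collagen, was 0.884 FPKM or less in shCtrl and 1.84 to 2.04 in shNAT10 libraries. The other fibroblast markers, COL1A2, DCN, LUM and PDGFRA, were at or near 0, and the part of these changes in the IFITM values was not tested.

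The other genes of the family were scarce. IFITM10, a divergent member further along chromosome 11, had 1.39, 1.36 and 1.04 FPKM in shCtrl and 0.548, 0.405 and 0.490 in shNAT10 libraries. The log2 difference was -1.23. It passed the filter only through its shCtrl libraries, which favours a lower value in shNAT10, and its test is not given. IFITM5 had a read in 1 library only. Of the pseudogenes in the table, IFITM8P and IFITM9P were at 0 in all libraries and IFITM4P reached at most 0.706 FPKM, with 11 reads over the 6 libraries.

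The question whether the whole neighbourhood moved was addressed with the genes within 100 kb of the interval from IFITM2 to IFITM3. Of 21 such genes, 10 were tested, of which 2 fell and 2 rose at an adjusted p under 0.05. Over all 12982 genes tested, 21.2% fell and 20.8% rose by this criterion, that is 2751 and 2699 genes, and on TPM the numbers were 2075 and 3355. SIGIRR, an inhibitory receptor of the interleukin-1 family, was 31.2, 50.6 and 33.9 FPKM in shCtrl and 21.8, 24.2 and 20.6 in shNAT10 libraries. Its log2 fold change was -0.76 ± 0.18 (adjusted p = 0.0134), and the call was lost without the first or the third shNAT10 library (adjusted p = 0.0503 and 0.0529, range over all alternatives 0.000963 to 0.0529). ANO9, a TMEM16 family protein, fell by 0.39 (adjusted p = 0.0252), a call lost under 6 of 14 alternatives, including the omission of the third shCtrl library or of any 1 shNAT10 library. B4GALNT4, a glycosyltransferase gene that is the next tested gene beyond IFITM3, rose from 23.1, 29.8 and 24.6 to 37.1, 37.7 and 34.9 FPKM, with a log2 fold change of 0.51 ± 0.10 (adjusted p = 0.00772). PSMD13, a proteasome subunit, rose by 0.32 (adjusted p = 0.0437), a call lost under 8 of 15 alternatives, including the omission of each library other than the second shCtrl library.

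RIC8A, SIRT3, PGGHG and PKP3, on either side of the cluster, had log2 fold changes from -0.10 to 0.25 with groups that overlap. The antisense genes AC136475.2 and AC136475.1, which lie among the IFITM genes, had log2 fold changes of 0.08 and 0.80 (adjusted p = 0.805 and 0.0678) at 3.41 FPKM or less. None of the tested neighbours reached the log2 difference of any member, the nearest being SIGIRR at -0.76.

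The tested protein-coding genes whose centred log2(FPKM + 0.1) profile over the 6 libraries lay nearest to the mean profile of the members were DUSP9, ALDH7A1, DGAT2, HNRNPA1L2, CCDC28B and HNRNPA1P48. Their root-mean-square distances were 0.08 to 0.15, against a median of 0.95 over all genes tested and 0.28 to 0.37 for the members themselves. DUSP9, a phosphatase of MAP kinases, was 5.59, 7.74 and 5.47 FPKM in shCtrl and 1.56, 2.05 and 1.51 in shNAT10 libraries, with the second shCtrl library highest as for IFITM2 and IFITM3. ALDH7A1 is an aldehyde dehydrogenase and DGAT2 an enzyme of triglyceride synthesis, and their log2 fold changes were -1.79 and -1.62. HNRNPA1L2 and HNRNPA1P48 are near copies of HNRNPA1, so the counting could have split reads between them. None of these genes is in the list of interferon effectors.

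Interferon effectors, the genes that interferon switches on and that carry out its antiviral and antigen-processing functions, were mostly lower in shNAT10 cells. The list held 72 genes besides the members and was drawn up with earlier results of these data known, so its counts are a description and no independent evidence. Of these, 47 passed the filter, 38 fell and 2 rose at an adjusted p under 0.05, that is 80.9% and 4.26%, against 21.2% and 20.8% of all genes tested. All 38 that fell had groups that did not overlap. The share of all fallen genes with such groups is not given here, so this count is not read as a trait of the effectors. A fall of more than 2-fold was called for 18 of them, a criterion met by 3.57% of all genes tested, and none rose by more than 2-fold, against 2.91%. The median log2 fold change was -0.81, and that of all genes tested -0.01. Genes that passed the filter only through their shCtrl values had to be lower, and the 2-fold count and the median include such genes. Of the 40 effectors with at least 1 FPKM in all 6 libraries, 32 fell and 2 rose, and of all 11663 such genes 21.4% fell and 21.5% rose. Among the 25 effectors that did not pass, 15 had every shNAT10 library below every shCtrl library and 0 the reverse. Of the 23 with a value above 0 in any library these are 65.2% and 0%, against 7.58% and 6.10% of all 16713 such genes below the filter.

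IFIT2, which binds viral and other RNA, fell most, from 11.2, 9.83 and 12.2 to 1.93, 1.56 and 1.85 FPKM, with a log2 fold change of -2.58 ± 0.12 (adjusted p = 5.03e-05). Its partner IFIT3 was 5.24, 5.78 and 5.55 FPKM in shCtrl and 1.16, 0.763 and 1.38 in shNAT10 libraries (-2.26 ± 0.20). PSMB9, an immunoproteasome subunit, fell by 2.17 ± 0.23. LGALS3BP, a secreted glycoprotein, fell by 2.14, with 30.6 to 41.3 FPKM in shCtrl and 7.80 to 8.41 in shNAT10 libraries. UBE2L6, the conjugating enzyme for ISG15, fell by 2.02 ± 0.16, and ISG15 itself, a ubiquitin-like modifier, from 33.0, 62.5 and 45.4 to 22.2, 19.8 and 16.9 FPKM. The log2 differences of the members lie among those of the strongest of these falls, IFITM3 between IFIT2 and IFIT3 and the other members between IFI6, an interferon-induced mitochondrial protein (-1.80), and OAS3, an enzyme that makes the activator of RNase L (-1.28). The genes that rose were MX2, a GTPase that blocks nuclear import of retroviral genomes, and DDX58, the RNA sensor RIG-I, by 0.33 and 0.27 (adjusted p = 0.0246 and 0.0491). Neither rise was called without the third shCtrl library or without any 1 of the shNAT10 libraries, and the count of effectors that rose was then 0.

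The ISRE core printed above was set against these changes. Among tested genes in the promoter table, 27.5% of the 233 with a match fell and 17.6% rose, against 22.1% and 22.2% of the 8900 without one. The 233 include 20 of the effectors, and of the 213 others 22.1% fell and 19.2% rose. Of the tested effectors in the table, 17 of 20 with a match fell and 15 of 17 without one, with median log2 fold changes of -1.05 and -0.71. The match is a run of letters and not a measured site of binding.

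The ligands that start the pathway were nearly absent from the RNA. Of 22 interferon genes, 17 had no read in any library, among them IFNB1 (interferon beta) and IFNG (interferon gamma). IFNE, an interferon of epithelia, was the highest, at 0.836 to 1.13 FPKM in shCtrl and 0.642 to 0.920 in shNAT10 libraries, with groups that overlap. No ligand passed the filter. A count of 0 at this depth does not show that a gene is silent.

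Receptors and signalling proteins moved less uniformly. Of 25 listed genes 24 were tested, and 9 fell and 4 rose, that is 37.5% and 16.7% against 21.2% and 20.8% of all genes tested. Their median log2 fold change was -0.29. The list shares 5 genes with the effectors, so that the falls of STAT2 and USP18 are counted in both. Both chains of the type I receptor fell. IFNAR1 was 12.8, 11.1 and 12.6 FPKM in shCtrl and 7.05, 7.75 and 7.29 in shNAT10 libraries (-0.72 ± 0.08, adjusted p = 0.000865). IFNAR2 was 5.92, 6.44 and 5.88 against 3.14, 2.75 and 3.04 FPKM (-1.01 ± 0.09, adjusted p = 0.000333). Of the receptor-bound kinases, TYK2 fell by 0.44 ± 0.09, whereas JAK1 was 86.6, 67.1 and 82.3 FPKM in shCtrl and 74.9, 71.9 and 75.4 in shNAT10 libraries, with groups that overlap (-0.08 ± 0.10, adjusted p = 0.564). The sign of JAK1 turned on TPM, and without the second shCtrl library JAK1 was called lower (-0.19, adjusted p = 0.0133).

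The transcription factors did not all move one way. STAT2 fell by 0.29 ± 0.07 (adjusted p = 0.0196), a call lost on TPM and without the third shCtrl or the first or second shNAT10 library. IRF9, the DNA-binding partner of STAT2, was 1.00, 1.10 and 1.25 FPKM in shCtrl and 0.550, 0.756 and 0.739 in shNAT10 libraries, a log2 difference of -0.65. It met the filter only through its shCtrl libraries, which favours a lower value in shNAT10, so its test is not given. IRF1, a factor that binds ISRE-like elements and is induced by interferon gamma, fell from 5.37, 6.32 and 5.13 to 2.12, 1.93 and 2.16 FPKM (-1.39 ± 0.11, adjusted p = 0.000230), the largest fall of the list. USP18, an inhibitor of IFNAR2 signalling, fell by 0.69, a call lost without the third shCtrl library, and PTPN1, a phosphatase of JAK kinases, by 0.66. STAT3, the factor of interleukin-6 signalling, rose by 0.51 ± 0.08 and the phosphatase PTPN11 by 0.87 ± 0.15. PIAS1, an inhibitor of STAT signalling, rose by 0.47 and IFNGR2, a chain of the interferon gamma receptor, by 0.30. The calls of PIAS1 and IFNGR2 were lost without the first or the third shNAT10 library, which left 2 genes that rose, and that of IFNGR2 also without the first or the third shCtrl or the second shNAT10 library.

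Of 16 listed genes whose proteins bind or modify IFITM proteins, 14 were tested, and 5 fell and 2 rose. These are 35.7% and 14.3%, against 21.2% and 20.8% of all genes tested, and the median log2 fold change was -0.05. SETD7, a lysine methyltransferase that methylates IFITM3, rose most, from 4.74, 2.42 and 3.98 FPKM in shCtrl to 21.0, 21.1 and 22.6 in shNAT10 libraries, with a log2 fold change of 2.56 ± 0.22 (adjusted p = 0.000281). The palmitoyltransferases, which attach the lipid that anchors IFITM proteins, went apart. ZDHHC20 fell from 22.6, 16.1 and 21.6 to 10.7, 11.1 and 12.1 FPKM (-0.81 ± 0.13, adjusted p = 0.00342), ZDHHC3 fell by 0.27 and ZDHHC7 rose by 0.77 ± 0.06. ATP6V0B, a subunit of the proton pump of endosomes, fell by 1.15 ± 0.13, and CD9, a tetraspanin, by 0.41. KDM1A, a lysine demethylase, fell by 0.19 (adjusted p = 0.0387), a call lost under 9 of 15 alternatives. Without the second shNAT10 library 3 of the genes fell, since the calls of ZDHHC3 and KDM1A were lost. NEDD4, the ubiquitin ligase of IFITM3, was 9.63, 5.03 and 8.33 FPKM in shCtrl and 7.50, 6.78 and 7.67 in shNAT10 libraries.

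Of 15 listed genes that act at viral entry or in the same membranes, 12 were tested, and 2 fell and 2 rose, with a median log2 fold change of -0.10. The share of 16.7% in each direction lies near that of all genes tested, 21.2% and 20.8%. BST2 and LY6E are also counted among the effectors, and CD81 and ZMPSTE24 among the partners. SERINC5, a membrane protein that impairs the fusion of retroviral particles, fell from 14.0, 8.59 and 13.1 to 4.02, 4.23 and 4.57 FPKM (-1.42 ± 0.18, adjusted p = 0.00115). LY6E, an interferon-induced surface protein, fell by 0.45 (adjusted p = 0.0439), a call lost without the third shCtrl library or any 1 shNAT10 library. TMPRSS2, a surface protease that primes viral spike proteins, rose from 2.05, 1.77 and 2.38 to 4.95, 4.57 and 4.01 FPKM (1.10 ± 0.14, adjusted p = 0.00119), and the lysosomal protease CTSB rose by 0.40 ± 0.09. The number that fell was 1 without the third shCtrl library or any 1 shNAT10 library and 5 without the second shCtrl library. BST2, which tethers budding particles, did not pass the filter, with at most 1.07 FPKM.

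The acRIP-seq lists were searched for peaks on the members. The shCtrl list, with 16892 peaks, held none on IFITM1, IFITM2 or IFITM3, whatever the gene or strand named for the peak. The shNAT10 list, with 15813 peaks, held 1, on IFITM2 at chr11:308150-308388 on the forward strand, in a single block of 239 bases. Its fold enrichment of IP over input was 306, at percentile 78.4 of its list, whose median was 45.2, and its significance value lay at percentile 90.4. The IFITM2 mRNA itself was lower in the shNAT10 cells in which the peak was listed. With 1 list per group the difference between the lists has no replicate check.

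The first 43 bases of the peak precede the start codon and the other 196 are coding. This coding part is shown, from a GENCODE v29 transcript of IFITM2, because the peak is the only acRIP-seq peak listed on the family cluster. The paper describes conventional acRIP-seq as prone to false positives and added ac4C-seq, which was not used here. Whether the peak marks ac4C was not tested. Capitals mark each C that begins a triplet in a run of at least 4 triplets CNN, the repeat in which ac4C is known to occur. Only runs that lie whole inside the stretch are marked and counted. The last bases of the stretch begin a run that the cut leaves incomplete. Below it stand the aligned parts of IFITM3 (chr11:320615-320813, reverse strand) and IFITM1 (chr11:314171-314306, forward strand), on which no peak was listed, with capitals at the bases that differ from IFITM2 or are inserted.
IFITM2: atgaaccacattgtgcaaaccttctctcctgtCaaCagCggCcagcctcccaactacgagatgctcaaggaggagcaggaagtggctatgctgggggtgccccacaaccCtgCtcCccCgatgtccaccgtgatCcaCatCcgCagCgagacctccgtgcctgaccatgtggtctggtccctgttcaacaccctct
IFITM3: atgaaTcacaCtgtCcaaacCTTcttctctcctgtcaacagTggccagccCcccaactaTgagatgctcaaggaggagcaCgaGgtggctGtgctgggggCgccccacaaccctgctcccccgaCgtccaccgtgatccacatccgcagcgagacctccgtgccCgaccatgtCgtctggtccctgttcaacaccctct
IFITM1: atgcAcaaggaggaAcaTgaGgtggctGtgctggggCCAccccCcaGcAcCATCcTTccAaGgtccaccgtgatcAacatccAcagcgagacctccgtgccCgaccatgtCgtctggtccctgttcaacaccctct
The IFITM3 stretch differs from IFITM2 at 13 aligned bases and the IFITM1 stretch, which starts later, at 23. The IFITM2 stretch held 13 cytidines in such runs and the IFITM3 stretch 12, and a run was present in the first 196 coding bases of 68.0% of 10978 tested genes.

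The lack of a listed peak on IFITM3, at a mean of 415 FPKM in shCtrl cells, was set beside other genes. A peak was listed for 49.6% of all tested genes in shCtrl and 47.7% in shNAT10. Among the 483 tested genes with a mean shCtrl FPKM of at least 100 the shares were 63.6% and 62.9%. Among the 1279 whose longest transcript is no longer than that of IFITM2, 892 bases, they were 13.4% and 11.1%, and among the 64 genes in both classes 57.8% and 45.3%. Of the 47 tested effectors, 37 carried a peak in shCtrl and 34 in shNAT10 cells. IFITM10 had no shCtrl peak and 1 shNAT10 peak, at chr11:1747786-1748115, with a fold enrichment of 694.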

How the data were processed

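RNA-seq (poly(A), strand-specific kit, paired reads of 150 bases) was done on 3 shCtrl and 3 shNAT10 libraries of PANC-1 cells. The submitters' processing notes name GRCh38, HISAT2 and HTSeq 0.11.0. The authors deposited FPKM values, 1 column per library. For acRIP-seq the authors deposited 1 peak list per group with the fold enrichment as a ratio, a p-value and its logarithm, kept here as a score for ranking. Whether IP libraries were pooled is not given in the sources used here. Groups come from the labels.

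Whole reads were recovered from the FPKM values with the length of the longest GENCODE v29 transcript, and 96.9% of values above 0 came out whole within 0.01 reads. They give the depth and 1 alternative fit.

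limma 3.58.1 (R 4.3.3) was fitted to log2(FPKM + 0.1) for the 12982 genes that reached 1 FPKM in 3 or more libraries. The variance was allowed to follow the mean, and p-values were adjusted by Benjamini-Hochberg over all of these genes. A gene fell or rose at an adjusted p under 0.05, and by more than 2-fold with a log2 fold change beyond 1 besides. A fold change on this scale understates the change of low genes. The fit was tested on simulated data. Values of the members are differences of group means on the same scale. Coding sequences were aligned with Biopython 1.88 and figures drawn with matplotlib 3.10.9 under Python 3.11.15.

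Some single genes are not reported here. The members and gene lists were chosen with earlier results of these data known. Named genes are the members, other IFITM genes, NAT10, neighbours within 100 kb, the 6 nearest profiles, up to 5 called genes per direction and list with groups that do not overlap, and the type I interferon pathway; ISG15, IFI6, OAS3, NEDD4, BST2, IFNE and IFNG were named after their values were seen. Alternatives were a pseudocount of 1, quantile normalization, median centring, TPM, the recovered reads with TMM scaling and voom, the replicate number as a block, no filter, a minimum FPKM of 5, no variance trend, and the omission of each library.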

Additional observations from a re-analysis of the deposited data

How the results depend on the processing

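The log2 differences of IFITM2 and IFITM3 moved by less than the spread between libraries under all 12 alternatives, within -1.58 to -1.33 and -2.48 to -2.19. That of IFITM1 was -0.98 with a pseudocount of 1, and leaving out single libraries moved it between -1.99 and -1.32; at 5 to 51 reads per library its size is limited by depth. Of the 49 called genes that were named by rule, 37 were called under every alternative run and none turned its sign. These include IFITM10, whose test is not given, and leave out ISG15, IFI6 and OAS3, which were named later. These counts cover lost calls only. Many of the 49 genes were picked for large changes with separate groups in the same fit, which favours a kept call. The share of kept calls among all called genes is not given here. JAK1, RIC8A, PKP3 and AC136475.1, not called in the main fit, were called without the second shCtrl library. Genes that fell by more than 2-fold numbered 463, 231 with a pseudocount of 1 and 227 at a minimum FPKM of 5; genes that rose numbered 378, 198 and 221 there, and 573 on TPM, where falls made up 39.5% of these calls against 55.1%. The cause was not tested.

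Effectors that fell numbered 27 at a minimum FPKM of 5 and 43 without a filter, with the other alternatives between. At these settings 2020 of all 8474 and 2330 of all 29695 genes tested fell. When single libraries were left out, 1765 to 3318 of all 12982 genes tested fell and 1774 to 3303 rose. Effectors that rose were 0 without a filter and 1 without the trend, and 0 to 2 without single libraries. Signalling genes that rose were 2 to 4 without single libraries. Of the partners, 3 fell on TPM, and 3 to 6 without single libraries. Of the entry factors, 4 fell after quantile normalization, 1 without a filter and 1 without the trend, and 1 to 5 without single libraries; 1 rose at a minimum FPKM of 5. With the replicate block, 468 genes fell and 385 rose by more than 2-fold. Deviations of same-numbered libraries correlated at -0.043, 0.064 and 0.107, and those of the other pairs at -0.122 to 0.063. Whether same-numbered libraries were grown or prepared together cannot be told from these values. The peak on IFITM2 was in the upper 50% of its list by fold enrichment and by p; a reciprocal overlap could not be tried, since 1 list held no peak there.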
